A study of Mus musculus with 36 samples.

Results

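The change in ribosome occupancy of each transcript after removal of the RNA helicase DDX6 was examined in mouse embryonic stem (ES) cells. It was read from the 12 libraries of 36 in the series that held ribosome-bound or total RNA of control cells and of cells depleted of DDX6. Ribosome occupancy is the log2 ratio of a transcript's level in ribosome-bound RNA to its level in total RNA. The quantity of interest is the occupancy in depleted cells minus that in control cells, an interaction of fraction and condition that was fitted for 16345 genes. The 4 groups, with 3 replicates each, were control total RNA, control ribosome-bound RNA (labelled polysome), and the same fractions labelled DDX6deg.

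All 12 libraries came from naive ES cells of 1 cloned line, grown with 2 kinase inhibitors, that expressed LSM14A fused to GFP. Both alleles of Ddx6 in this line carried an FKBP12-based degron tag with an HA epitope, followed by a P2A sequence and mCherry, so control cells had the tagged protein as well. The DDX6deg cells had received dTAG-13, a small molecule that directs tagged proteins to the proteasome, for some hours before harvest. Controls were the same cells without it, as far as the labels and methods say. No library came from untagged cells given dTAG-13, so effects of the compound and of DDX6 loss cannot be told apart. Differences between the conditions are named here by DDX6 loss. Lysates made with cycloheximide were split, with 1 portion kept as total RNA and the remainder spread on a sucrose gradient. The ribosome-containing gradient fractions were pooled by their absorbance, so the pool may hold mRNA with a single ribosome as well as polysomes. Equal amounts of RNA entered each library, and every difference given here is therefore relative to the other transcripts of the same fraction. In such bulk samples, fewer molecules per cell and fewer cells with the transcript cannot be told apart.

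DDX6 is a DEAD-box helicase of the 5′-to-3′ mRNA decay pathway. It binds the CCR4-NOT deadenylase complex, the decapping machinery and the LSM14 and EIF4ENIF1 (4E-T) repressor proteins. It is needed for the assembly of P-bodies, cytoplasmic condensates that hold many translationally repressed mRNAs, and it links microRNA-guided silencing to repression of translation. A change in ribosome occupancy after its loss therefore measures whether transcripts moved onto or off ribosomes to a different degree than their total level changed.

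The libraries held between 13308782 and 29362195 assigned reads. Replicates of a group differed by more than sampling noise in all 12 pairs, by a chi-square test of their counts whose statistic was 2.51 to 11.6 for each degree of freedom, and no pair was counted as 1 sample. Control total RNA replicate 3 stood apart from its group, at 11.6 and 10.7 against replicates 1 and 2, which differed from each other by 2.74. Control ribosome-bound replicate 3 did so to a lesser degree, at 6.63 and 7.33 against replicates 1 and 2, which differed by 2.51. Values without control total RNA replicate 3 are given beside the results that it moved most. Naive pluripotency transcripts summed to between 8096 and 8865 CPM (read counts scaled to the size of the library) in each library. Markers of fibroblasts (7 of 11 tested) summed to 5.22 to 8.34 CPM, those of primitive endoderm (7 of 7) to 2.88 to 4.96 CPM and those of trophoblast (4 of 6) to 15.2 to 21.0 CPM. Most of the last sum was Eomes, with a mean of 13.3 CPM, and 0 genes of these 3 lists were called in total RNA, in the ribosome-bound pool or in occupancy.

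No transcript passed the test for a change in ribosome occupancy. The edgeR quasi-likelihood test called 0 of 16345 genes (0%) at an adjusted p under 0.05, and the smallest edgeR adjusted p was 0.256. At an unadjusted p under 0.05 there were 844 genes, of which 412 had higher occupancy after DDX6 loss (2.52% of those tested) and 432 lower (2.64%). Changes of single well-expressed genes were estimated with narrow unadjusted intervals. Among 9116 genes with a mean of at least 10 CPM, the standard error (SE) of the log2 change had a median of 0.095. The 95% interval of the change lay within a 1.5-fold change in either direction for 8970 of them (98.4%). From 300 CPM upward the median half-width of that interval corresponded to 1.12-fold, and between 1 and 10 CPM to 1.44-fold. Below 1 CPM, where 4005 of the genes lay, it corresponded to 4.28-fold, so changes smaller than this were mostly not detectable in these rare transcripts. None of these intervals is adjusted for the number of genes tested, so a call needed a change larger than the half-width. The middle 90% of the well-expressed genes changed in occupancy by between −0.19 and 0.19 on the log2 scale.

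The count of 0 depended on the tool, on single libraries and on other settings given in the last section. DESeq2 called 4 genes and found 652 at an unadjusted p under 0.05. Without control total RNA replicate 3, edgeR called 52 genes, 23 with higher and 29 with lower occupancy. Without control ribosome-bound replicate 1 it called 4, without degron total RNA replicate 3 it called 2, and without control total RNA replicate 1 or degron ribosome-bound replicate 3 it called 1 each. Omission of any other library gave 0.

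The well-expressed transcripts with the smallest unadjusted p were mostly ones whose occupancy was lower after DDX6 loss. They were chosen after their values were seen. Hspa8 (chr9:40800984-40810087, plus strand), which encodes the constitutive cytosolic Hsp70 chaperone, had the smallest. Its total RNA was 4757, 4843 and 4367 CPM in the controls and 5264, 4978 and 5166 CPM in the degron cells. In the ribosome-bound pool it was 2604, 2661 and 2822 CPM in the controls and 2319.5, 2202 and 2251 CPM in the degron cells. The groups did not overlap in either fraction and moved in opposite directions. The log2 change in occupancy was −0.40 ± 0.071 (SE), or 0.759 times the control occupancy, with an unadjusted p of 1.57e-05 and an edgeR adjusted p of 0.256. Of its 2 arms, the fall in the ribosome-bound pool was called (log2 −0.26, edgeR adjusted p = 0.00847) and the difference in total RNA was not (0.14, adjusted p = 0.0946). Hspa8 was the one gene outside the repeated gene families that was called by DESeq2 (adjusted p = 2.02e-04) and also by edgeR without control total RNA replicate 3 (adjusted p = 0.0339). EdgeR called it with no filter on low counts as well (adjusted p = 0.0152).

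Vcp, whose product is an ATPase that extracts ubiquitinated proteins, had an occupancy change of −0.30 ± 0.068 (SE) and an edgeR adjusted p of 0.702. Its ribosome-bound level was 123, 122 and 124 CPM in controls and 110.3, 102 and 108 CPM after DDX6 loss. These groups did not overlap, and DESeq2 called the change at an adjusted p of 0.0301. Aars, the alanyl-tRNA synthetase gene, stood at 545, 549.8 and 557 CPM in control total RNA and at 636, 625 and 625 CPM in degron total RNA. Its ribosome-bound level was 112, 105 and 121 CPM in controls and 104, 101 and 105 CPM in degron cells, and the occupancy change was −0.31 ± 0.073 (SE; edgeR adjusted p = 0.702). Total RNA of Aars rose (log2 0.19, edgeR adjusted p = 0.0224) while the bound groups overlapped. Os9, which encodes a lectin of endoplasmic reticulum (ER) quality control, rose in total RNA from 24.2, 25.9 and 27.4 CPM to 33.6, 32.3 and 33.4 CPM. Its ribosome-bound level was 13.9, 14.0 and 14.1 CPM before and 14.1, 13.1 and 12.2 CPM after, with an occupancy change of −0.45 ± 0.10 (SE). The same direction held for Snd1 (−0.33), a Tudor domain nuclease gene, Gtf2f1 (−0.39), a subunit of the transcription factor TFIIF, Uba1 (−0.27), the main ubiquitin-activating enzyme gene, and Zfp622 (−0.42), a factor of large ribosomal subunit maturation.

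**Figure D1:**
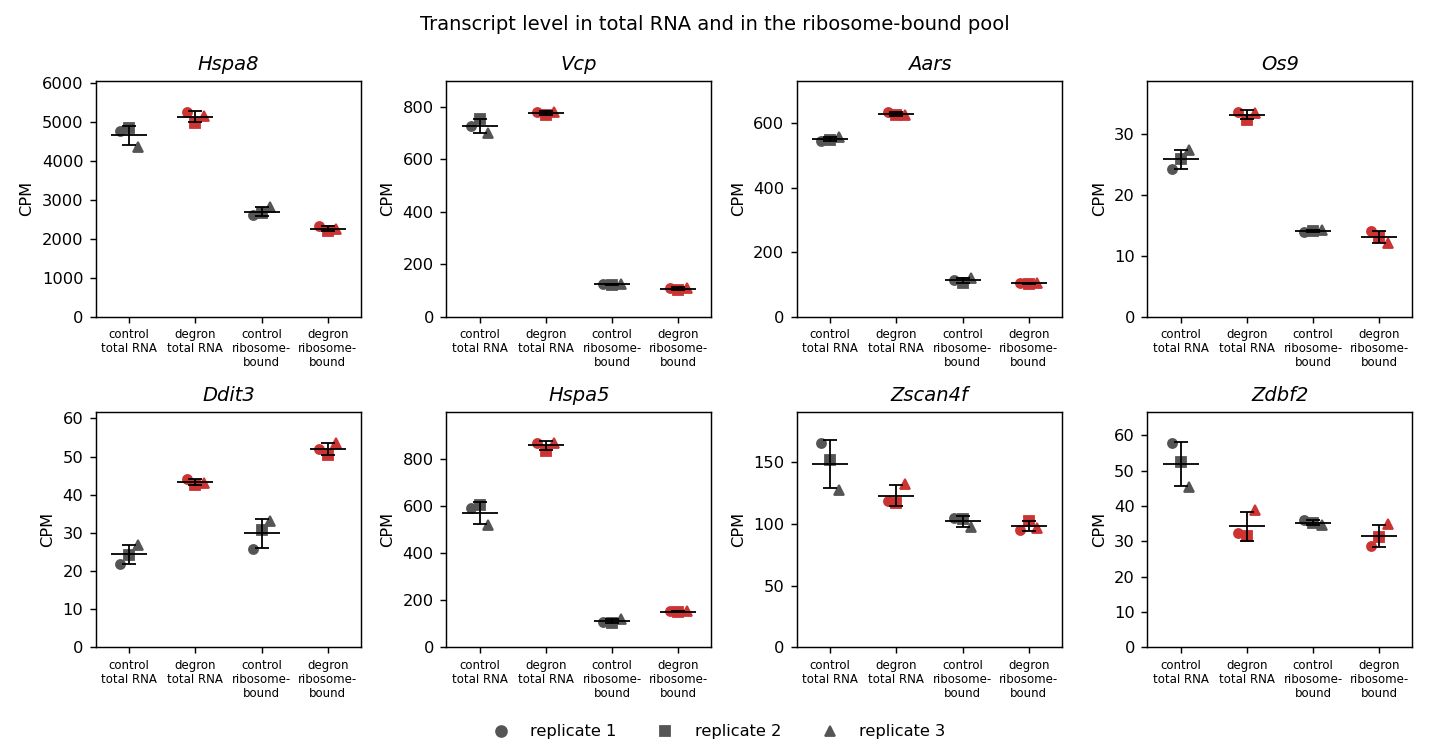
Level in CPM (linear axis from 0) of 8 transcripts in the 12 libraries, with control in grey and degron in red; bars are the mean and SD of 3 replicates. Hspa8, Vcp and Aars lie higher in degron total RNA and lower in the degron ribosome-bound pool by group mean, Ddit3 and Hspa5 are higher in both, and Zscan4f and Zdbf2 are lower in total RNA with a smaller difference in the pool.

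Several of these transcripts had low ribosome occupancy in both conditions, as a relative ratio that does not count ribosomes on each transcript. Vcp had 0.169 times as much ribosome-bound as total RNA signal in controls and 0.137 times in degron cells, and Uba1 had 0.147 and 0.122 times. Aars had 0.204 and 0.165 times. Occupancy at or below −2 on the log2 scale was found for 60 well-expressed genes in controls and 79 in degron cells, with 56 in common (93.3% of the first and 70.9% of the second). The lowest in controls, besides Uba1, were Cad, an enzyme of pyrimidine synthesis, at −2.69, and Lamc1, a laminin chain gene, at −2.66. In degron cells these stood at −2.76 and −2.73.

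Among transcripts with the opposite sign, Tmed5, a cargo receptor gene of the early secretory pathway, had the smallest unadjusted p outside repeated gene families. It was 43.8, 45.7 and 41.1 CPM in the control pool and 48.7, 55.0 and 50.9 CPM in the degron pool, and 43.9, 39.6 and 36.2 against 37.8, 36.5 and 34.2 CPM in total RNA. Its occupancy change was 0.39 ± 0.10 (SE; edgeR adjusted p = 0.879). Zdbf2, an imprinted gene, had a change of 0.43 ± 0.13 (SE), with total RNA of 57.9, 52.5 and 45.4 CPM in controls and 32.5, 31.4 and 38.9 CPM in degron cells. Tmed5 (edgeR adjusted p = 0.0402) and Zdbf2 (0.0472) were among the 52 genes called without control total RNA replicate 3, as were Os9, Snd1, Aars and Zfp622.

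Larger nominal changes belonged to copies of repeated gene families, whose reads salmon can assign to 1 copy or another. Gm14434, a zinc finger family member, was 0 in the 3 degron total RNA libraries, 18.8, 2.19 and 39.6 CPM in control total RNA, and 0 in 2 of the 3 control ribosome-bound libraries. Gm21293 and Gm8764 both lie on chromosome 10 (from 104142987 and from 104160006) and changed in occupancy in opposite directions, by −0.94 and 1.12. Such values are uncertain, and no direction was drawn from them. Genes with such Gm names made up 2 of the 4 that DESeq2 called.

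Each arm of the interaction showed differences when taken alone. In total RNA 513 genes rose (3.14% of those tested) and 625 fell (3.82%) on DDX6 loss by edgeR. In the ribosome-bound pool 177 rose (1.08%) and 185 fell (1.13%). With DESeq2 size factors that split was 142 and 290, and by DESeq2 202 and 486. Both arms rose for 114 genes and both fell for 110, and 0 genes were called in opposite directions. Of the 513 genes that rose in total RNA, 494 (96.3%) also lay above 0 in the pool, and of the 625 that fell, 595 (95.2%) lay below 0. The medians for the 513 were 0.31 in total RNA and 0.18 in the pool, and for the 625 they were −0.28 and −0.15. These genes were selected on total RNA. Of genes selected on the pool, the 177 that rose had medians of 0.34 in the pool and 0.31 in total RNA, and the 185 that fell −0.28 and −0.23. The 2 arms share no library, but the pool and total RNA came from the same lysates. Across the 9116 well-expressed genes Pearson's r between the arms was 0.36, as a description of genes that are not independent. Without control total RNA replicate 3 the total RNA count was 3221 genes, and it was 344 and 401 without replicates 1 and 2 of that group and 446 and 385 without degron replicates 1 and 2. With any other library left out it lay between 960 and 1195. The count in the pool was 875 without control total RNA replicate 3, 114 and 125 without control ribosome-bound replicates 1 and 2, and 192, 116 and 134 without degron ribosome-bound replicates 1, 2 and 3.

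**Figure D2:**
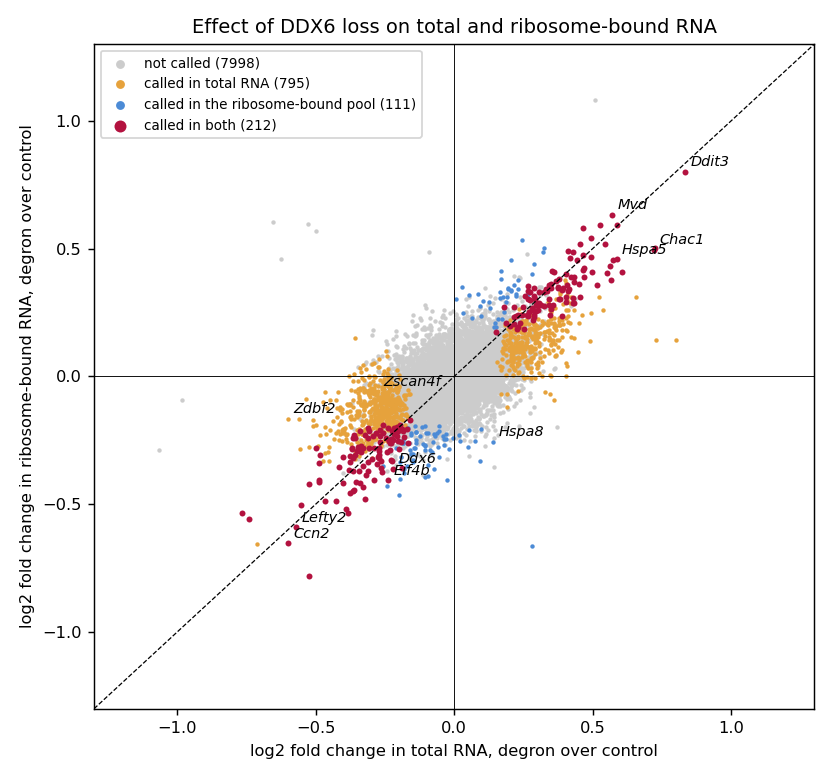
Log2 fold change on DDX6 loss in total RNA (x axis) against that in ribosome-bound RNA (y axis) for genes with a mean of at least 10 CPM; 7 of 9116 genes lie outside the axes, and the dashed line marks equal change, which is no change in occupancy. Of these genes 212 were called in both fractions and lie along the line, and 795 were called in total RNA alone and lie closer to the x axis than the line does.

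Some transcripts of the integrated and unfolded protein stress responses rose in total RNA and in the ribosome-bound pool. Of 16 ATF4 target genes, 9 rose in total RNA (against 3.14% of all genes) and 7 in the pool (against 1.08%), 0 fell, and their median changes were 0.27 and 0.23. The count of 7 was 4 without control ribosome-bound replicate 1 or 2 or degron ribosome-bound replicate 1. Their median occupancy change was −0.05 (−0.11 without control total RNA replicate 3) against −0.01 over all tested genes, and 0 of 16 reached an unadjusted p under 0.05. Ddit3, which encodes the stress transcription factor CHOP, was 22.0, 24.3 and 26.9 CPM in control total RNA and 44.2, 42.7 and 43.2 CPM in degron total RNA. In the pool it was 25.7, 30.8 and 33.2 CPM and 52.0, 50.5 and 53.7 CPM. The groups did not overlap in either fraction, with a 1.78-fold rise in total RNA (edgeR adjusted p = 7.02e-06) and a 1.74-fold rise in the pool (9.31e-06). Its occupancy change was −0.03, with a 95% interval from −0.27 to 0.20. Atf4 itself, a transcript whose translation is controlled through upstream open reading frames, rose by 0.31 in total RNA and 0.28 in the pool, and its occupancy change of −0.03 had a 95% interval from −0.17 to 0.10. Trib3, a pseudokinase gene that ATF4 and CHOP induce, rose by 0.54 and 0.52. Chac1, a glutathione-degrading enzyme gene, rose by 0.72 and 0.50. Of the 14 genes listed for regulatory upstream open reading frames, 4 rose in total RNA (Ddit3, Atf4, Ifrd1 and Atf5) and 2 fell (Odc1 and Ppp1r15b). The shares of all genes were 3.14% and 3.82%.

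A list of 26 ER chaperone and unfolded protein response genes was written after these values were seen. Of these, 14 rose in total RNA (against 3.14% of all genes) and 8 in the pool (against 1.08%), and 0 fell. The count of 8 was 13 without control total RNA replicate 3 and 5 without control ribosome-bound replicate 2. Hspa5, the ER Hsp70 chaperone BiP, was 590.3, 603 and 517 CPM in control total RNA and 868, 833 and 867 CPM in degron total RNA. In the pool it was 107, 104 and 121 CPM and then 154, 148 and 153 CPM. It rose by 0.59 on the log2 scale in total RNA and by 0.46 in the pool, and its occupancy, at −2.37 in controls, changed by −0.13 ± 0.086 (SE; edgeR adjusted p = 0.884). Manf, a secreted ER stress protein gene, rose by 0.56 and 0.43, Xbp1, a transcription factor of the unfolded protein response, by 0.49 and 0.47, and Herpud1, a component of ER-associated degradation, by 0.61 and 0.41. Sterol synthesis genes, also listed after the fact, gave 10 of 22 that rose in each fraction and 0 that fell. Of all genes 3.14% rose in total RNA and 1.08% in the pool. Mvd, an enzyme of the mevalonate pathway, rose from 65.1, 64.8 and 79.2 CPM to 105, 105 and 99.9 CPM in total RNA and from 51.6, 54.0 and 55.7 CPM to 85.5, 84.1 and 79.9 CPM in the pool. Its occupancy changed by 0.06 ± 0.094 (SE). Lss, lanosterol synthase, rose by 0.57 and 0.45, and Fdps, farnesyl diphosphate synthase, by 0.47 in both fractions.

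Promoters of the genes that rose in both fractions were searched for 2 stress elements. These genes were selected on the values above and include stress response genes already named, among them Hspa5, Herpud1 and Chac1. The shares below therefore describe the selected genes and are not separate support for a stress response. The RefSeq windows used (GRCm38.p6) run from 250 bases before to 50 bases after each gene start, and 95 of the 114 genes had a window. The ER stress response element, CCAAT and CCACG with 9 bases between them, on either strand, was in 3 of the 95 (3.16%), against 0.172% of 12807 tested genes with a window and 0.137% of all 27025 genes with one. The C/EBP-ATF element TTGCATCA was in 8 of the 95 (8.42%), against 0.757% of tested genes and 1.03% of all. No gene held both. Of 85 genes that fell in both fractions and had a window, 0 held either element. The ER element sites, with its fixed letters in capitals, were in Syvn1 (chr19:6046528-6046554, plus strand), Derl3 (chr10:75893238-75893264, minus strand), both genes of ER-associated degradation, and Hspa5 (chr2:34772021-34772047, plus strand). They read, 5′ to 3′ on the stated strand:
Hspa5: ttcaCCAATcggaggcctCCACGacgg
Syvn1: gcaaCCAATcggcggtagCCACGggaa
Derl3: ctagCCAATggggaagtcCCACGgtag
The C/EBP-ATF element, again in capitals, was in Atf3 (chr1:191183432-191183447, minus strand), Chac1 (chr2:119351045-119351060, plus strand), Nupr1 (chr7:126625569-126625584, minus strand) and Herpud1 (chr8:94386313-94386328, plus strand), and also in Jdp2, Plekhh3, Sfn and Vldlr. The first 4 read:
Atf3: gcacTTGCATCAccaa
Chac1: gccgTTGCATCActcc
Nupr1: cagaTTGCATCAgaca
Herpud1: cgggTTGCATCAgccc
These matches describe letters in the windows and were not measured as binding sites. Atf3, a stress-induced transcription factor gene, was low (2.59 to 3.48 CPM in control total RNA) and rose by 0.80 in total RNA and 0.88 in the pool.

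Among the genes that fell, some fell in both fractions and others mainly in total RNA. Ccn2, a matricellular growth factor gene, fell from 24.7, 22.4 and 25.2 CPM to 15.1, 16.0 and 16.4 CPM in total RNA and from 15.7, 16.5 and 17.5 CPM to 10.4, 9.60 and 11.9 CPM in the pool, with an occupancy change of −0.05 ± 0.12 (SE). Lefty2, a secreted inhibitor of Nodal signalling, fell by 0.57 in total RNA and by 0.59 in the pool. Eif4b, an initiation factor that stimulates the helicase EIF4A, fell by 0.24 in total RNA and by 0.41 in the pool, the latter from 587, 577 and 613 CPM to 459, 439 and 443 CPM. Its edgeR adjusted p values were 0.00408 and 5.43e-05, while its occupancy change of −0.17 ± 0.066 (SE) was not called (adjusted p = 0.879).

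Ddx6 mRNA itself fell in both fractions. It was 253, 239 and 220.1 CPM in control total RNA and 202, 198 and 211 CPM in degron total RNA. In the pool it was 149.6, 139 and 123 CPM and then 104, 107 and 111 CPM. The groups did not overlap in either fraction, and the log2 changes were −0.22 (edgeR adjusted p = 0.0344) and −0.36 (0.00359). The degron removes the protein, so these mRNA levels do not check the labels. Its occupancy change was −0.14 ± 0.090 (SE; edgeR adjusted p = 0.884). Over all tested genes 3.82% fell in total RNA and 1.13% in the pool. Of the 21 P-body and decapping factor genes, 3 fell in total RNA (Dcp2, the decapping enzyme, Ddx6, and Dcp1a, its activator) and 0 rose. Dcp2 was 286, 266 and 243 CPM in control and 200.4, 194 and 225 CPM in degron total RNA. In the pool 2 of the 21 fell (Ddx6 and Dcp2). The 18 CCR4-NOT and other deadenylation genes gave 3 that fell in total RNA, among them Pan3 by 0.29, and 1, Cnot4, in the pool. Of 16 microRNA pathway genes 5 fell in total RNA (Dgcr8, Tnrc6b, Dicer1, Trim71 and Lin28a) and 1 in the pool (Dgcr8). These calls moved with single libraries, and the counts of lower genes in total RNA ran from 1 to 5, from 0 to 6 and from 0 to 6 for the 3 lists when 1 library was left out, highest without control total RNA replicate 3 and lowest without replicate 1 or 2 of either total RNA group.

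Tnrc6b, which encodes a GW182 scaffold that joins Argonaute to CCR4-NOT, was 40.2, 38.7 and 33.8 CPM in control and 28.9, 31.5 and 32.8 CPM in degron total RNA. In the pool it was 16.7, 16.3 and 16.5 CPM and then 15.5, 18.05 and 18.3 CPM, and its occupancy change was 0.34 ± 0.11 (SE), with an unadjusted p of 0.00668 and an edgeR adjusted p of 0.879. Of 26 let-7 microRNA targets tested, 7 fell in total RNA and 2 in the pool, where 1 (Arid3a) rose. Of all genes 3.82% fell in total RNA and 1.13% in the pool. The 7 became 10 without control total RNA replicate 3 and 2 without control replicate 1 or degron replicate 1 or 2 of total RNA, and the 2 became 5 and as few as 1. Cdk6, a cell cycle kinase gene, fell by 0.30 in total RNA. Igf2bp1, an RNA-binding protein gene, fell by 0.27. The median occupancy change of the let-7 targets was 0.05 (0.11 without control total RNA replicate 3), against −0.01 over all tested genes. Of the 26, 18 lay above 0.

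Transcripts of the 2-cell-like state, a rare state of ES cells marked by Zscan4 genes, showed no called change in occupancy. Of the 25 listed genes tested, 10 had a mean of at least 10 CPM. An unadjusted p under 0.05 was reached by 2, both with higher occupancy, against 2.52% of all genes. In all, 23 lay above 0. Their list had a median of 0.16 (0.25 without control total RNA replicate 3), against −0.01 over all tested genes. In total RNA 5 fell (against 3.82% of all genes), all of them Zscan4 copies, and 0 changed in the pool. Zscan4f was 166, 152 and 128 CPM in control total RNA and 119, 117 and 132 CPM in degron total RNA, and 104, 104 and 97.2 CPM against 94.8, 102.5 and 96.8 CPM in the pool. Its total RNA groups overlapped through replicate 3 of each, and its occupancy change was 0.22 ± 0.10 (SE; edgeR adjusted p = 0.879). Zscan4c changed by 0.19 and Zscan4d by 0.24. The Zscan4 copies are near-identical, so values of a single copy are uncertain and the copies counted above are not separate observations. The 5 calls in total RNA became 7 without control total RNA replicate 3 and 0 without replicate 1 or 2 of either total RNA group. Zfp352 and Tcstv1, other genes of this state, lay under 6 CPM and changed by 0.01 ± 0.22 and 0.32 ± 0.24 (SE).

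Core pluripotency transcripts had no called change in occupancy. Nanog was 990.3, 964 and 947 CPM in control total RNA and 944, 909 and 905 CPM in degron total RNA, and 831, 834 and 814 CPM against 813, 831 and 802 CPM in the pool. Its occupancy change was 0.05 ± 0.063 (SE). Pou5f1, which encodes OCT4, changed by −0.13 ± 0.082, Dppa2 by −0.01 ± 0.081 and Zfp42, which encodes REX1, by −0.01 ± 0.072. Of the 21 naive pluripotency genes the median change was −0.01 (0.02 without control total RNA replicate 3). Of them 2 had an unadjusted p under 0.05, both with higher occupancy, against 2.52% of all genes. These were Tfcp2l1 (0.23) and Sall4 (0.21), transcription factor genes whose total RNA fell by 0.41 and 0.37. Tfcp2l1 was 765, 749.98 and 686 CPM in control and 544, 540.1 and 575 CPM in degron total RNA, and 571, 549.9 and 481 CPM against 475, 459 and 481 CPM in the pool. The occupancy of Tet2, a 5-methylcytosine dioxygenase gene, changed by 0.24 ± 0.11 (SE; edgeR adjusted p = 0.879).

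Transcripts of chromatin regulators and zinc finger genes lay more often above than below 0 in occupancy change. Over all tested genes the median was −0.01, so more genes lay below 0 than above it. Of 62 chromatin modifier genes 46 lay above 0, with a median of 0.06 (0.12 without control total RNA replicate 3 and 0.04 without replicate 1 of that group or degron total RNA replicate 2), 7 had an unadjusted p under 0.05 with higher occupancy against 2.52% of all genes, and 0 with lower. In total RNA 11 fell (against 3.82% of all genes), and in the pool 1 (Chd3, against 1.13% of all genes). Without control total RNA replicate 3 these became 33 and 4, and without degron total RNA replicate 1 the first became 1. Nsd1, a histone H3 lysine methyltransferase gene, was 283, 272 and 236 CPM in control and 206, 199.8 and 233 CPM in degron total RNA. In the pool it was 194, 184 and 172 CPM and then 179.96, 183 and 189 CPM, and the occupancy change was 0.31 ± 0.095 (SE; edgeR adjusted p = 0.879, or 0.0402 without control total RNA replicate 3). Of 354 numbered Zfp genes, many of them KRAB zinc finger repressors, 242 lay above 0 with a median of 0.07 (0.13 without control total RNA replicate 3 and 0.03 without replicate 1 of that group). At an unadjusted p under 0.05, 34 had higher occupancy and 5 lower, against 2.52% and 2.64% of all genes. In total RNA 44 of them fell and 3 rose, and in the pool 4 fell and 1 rose. Of all genes 3.82% fell and 3.14% rose in total RNA, and 1.13% fell and 1.08% rose in the pool. The 44 became 92 without control total RNA replicate 3 and 11 without replicate 1 of that group. Zfp462 was 65.7, 60.2 and 53.1 CPM in control and 43.6, 39.3 and 43.1 CPM in degron total RNA, and 38.0, 35.99 and 29.1 CPM against 30.6, 30.7 and 31.1 CPM in the pool. Nuclear and imprinted long noncoding RNAs, which are not translated, were in the ribosome-bound pool at a median control occupancy of 0.10. All 9 that were tested lay above 0 in occupancy change, and 4 of the 9 had a mean of at least 10 CPM. Rian (0.22), Meg3 (0.23), Tsix and Kcnq1ot1 had an unadjusted p under 0.05, against 2.52% of all genes with higher occupancy.

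Transcripts of housekeeping complexes lay more often below 0, as did those of all tested genes to a lesser degree (median −0.01). The median occupancy change was −0.10 for 95 nuclear-encoded respiratory chain genes (10 above 0), −0.08 for 77 mitochondrial ribosomal protein genes (7 above 0), −0.08 for 38 proteasome subunit genes (3 above 0) and −0.04 for 88 cytosolic ribosomal protein genes (20 above 0). Without control total RNA replicate 3 these were −0.16, −0.13, −0.08 and −0.10, and without replicate 2 of that group they were −0.06, −0.05, −0.07 and −0.0043. Without control ribosome-bound replicate 3 the proteasome median was −0.04 and the cytosolic ribosomal protein median turned to 0.02. None of these genes was called. At an unadjusted p under 0.05, 4, 3, 3 and 0 of them had lower occupancy and 0 higher, against 2.64% and 2.52% of all genes. Their total RNA medians lay at 0.11, 0.11, 0.09 and 0.10 and their medians in the pool at 0.01, 0.03, 0.01 and 0.06. In total RNA 6, 6, 0 and 1 of them rose, against 3.14% of all genes. Without control total RNA replicate 3 the 4 list counts were 52, 30, 13 and 41. Without control total RNA replicate 2 or degron total RNA replicate 2 they were all 0. The first and the last were also 0 without control total RNA replicate 1, and the first without degron total RNA replicate 1. Of 52 translation factor genes 13 lay above 0, and 5 had lower occupancy at an unadjusted p under 0.05. Among these was Eef2, the translocation factor (−0.20), and among the rest Eif1, a start codon selection factor, rose by 0.34 in total RNA and 0.36 in the pool. Of 19 cytosolic aminoacyl-tRNA synthetase genes and 25 cytosolic chaperone genes, both listed after the values were seen, 0 and 4 lay above 0, with medians of −0.12 and −0.11. In that group Tars, threonyl-tRNA synthetase, changed by −0.30 and Hsp90ab1, the constitutive Hsp90 gene, by −0.22. The medians of the lists of centromere, centrosome and kinesin genes, small nucleolar RNA host genes, primed and formative state genes and replication-dependent histone genes turned sign when single libraries were left out, and no direction was drawn from them.

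**Figure D3:**
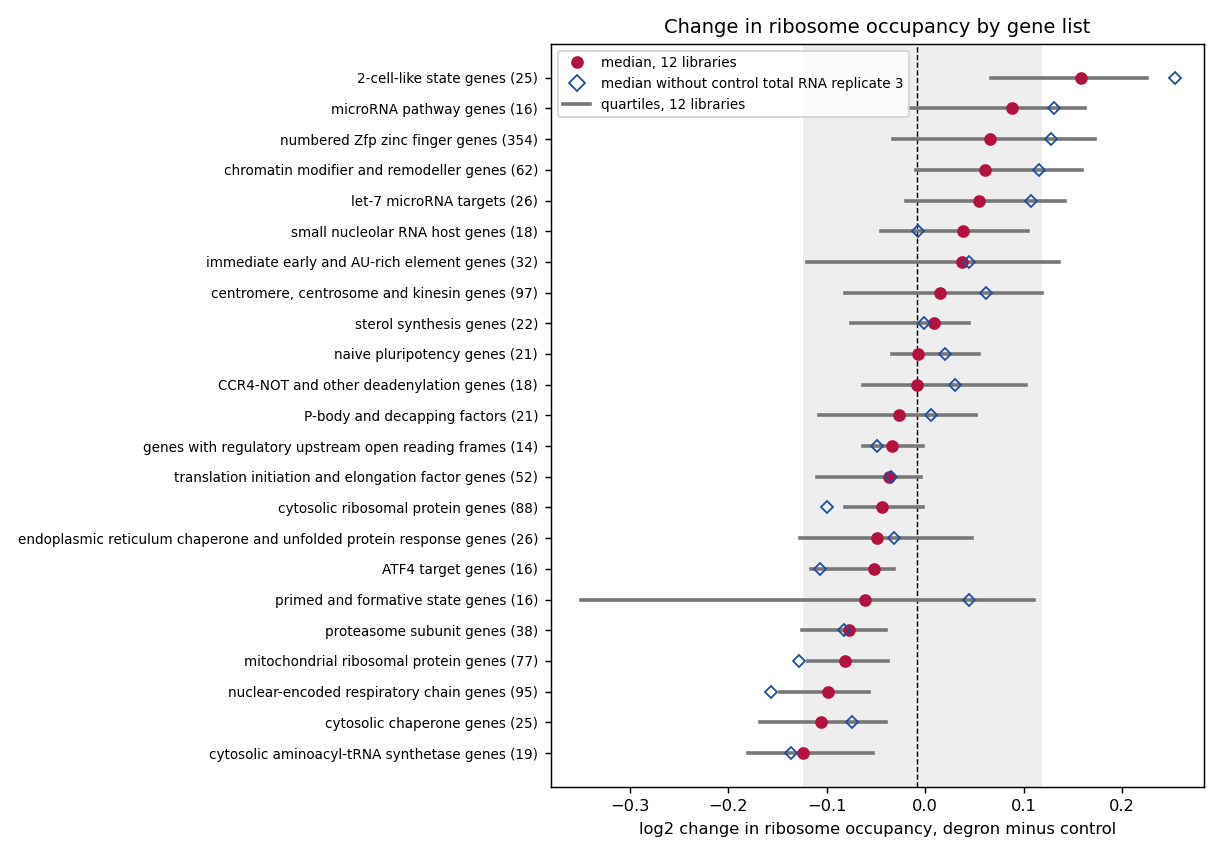
Median (red) and quartiles (grey line) of the log2 change in ribosome occupancy for each gene list, with the number of genes tested in parentheses; blue diamonds give the median without control total RNA replicate 3, and the shaded band and dashed line are the quartiles and median of all 16345 genes. Every list with at least 10 genes tested and 6 of them at 10 CPM or more is drawn, and all medians over the 12 libraries (red) lie between −0.12 and 0.16.

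Genes enriched in P-bodies of the same cell state and genes depleted from them had median occupancy changes of opposite sign, both close to 0. Genes were classed from 4 other libraries of the series, P-body and cytoplasm of naive ES cells, in which 3528 of 15630 genes (22.6%) were enriched in P-bodies and 2413 (15.4%) depleted. Among well-expressed genes the median occupancy change was 0.05 for 2795 P-body-enriched genes, −0.04 for 1683 depleted genes and −0.03 for 4638 others. Of the enriched genes 67.5% lay above 0, and of the depleted ones 30.96%. At an unadjusted p under 0.05, 191 enriched genes (6.83%) had higher and 24 (0.859%) lower occupancy, while 11 depleted genes (0.654%) had higher and 92 (5.47%) lower. In total RNA 344 enriched genes fell and 31 rose, 43 depleted genes fell and 136 rose, and 195 others fell and 258 rose. In the pool 72 enriched genes fell and 23 rose, 28 depleted genes fell and 44 rose, and 77 others fell and 79 rose. Of all tested genes 3.82% fell and 3.14% rose in total RNA, and 1.13% fell and 1.08% rose in the pool. Those shares include genes under 10 CPM, which the class counts leave out, so they are not a matched comparison. The class medians were −0.07 and 0.06 in total RNA and −0.02 and 0.01 in the pool, the last of which was −0.01 with DESeq2 size factors. Spearman's rho between P-body enrichment and occupancy change was 0.35 across the 9116 genes, a description only, since both measures vary with length and base composition.

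The size of this division depended on single total RNA libraries. Relative to the median of all well-expressed genes, the P-body-enriched class stood at 0.08 and 0.05 in control total RNA replicates 1 and 2 and at −0.07 in replicate 3. In degron total RNA it stood at −0.05, −0.11 and −0.03, so the groups overlapped through control replicate 3. In the ribosome-bound pool it stood at 0.02, 0.01 and 0.05 in controls and at −0.0024, 0.0029 and 0.01 in degron cells. The median occupancy change of enriched minus depleted genes was 0.09. It was 0.19 without control total RNA replicate 3, 0.04 without replicate 1 and 0.06 without replicate 2 of that group, 0.06 without degron total RNA replicate 2, and above 0 with any library left out. From libraries of the same number, the class difference in occupancy was −0.07, −0.04 and 0.29 in controls. In degron cells it was 0.11, 0.19 and 0.11. The SD of these values within a condition, pooled over the 2 conditions, was 0.14, and the control values were the more widely spread. It is a spread of single replicates and not the error of the 0.09. The part of these libraries in the division was not tested beyond these values.

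**Figure D4:**
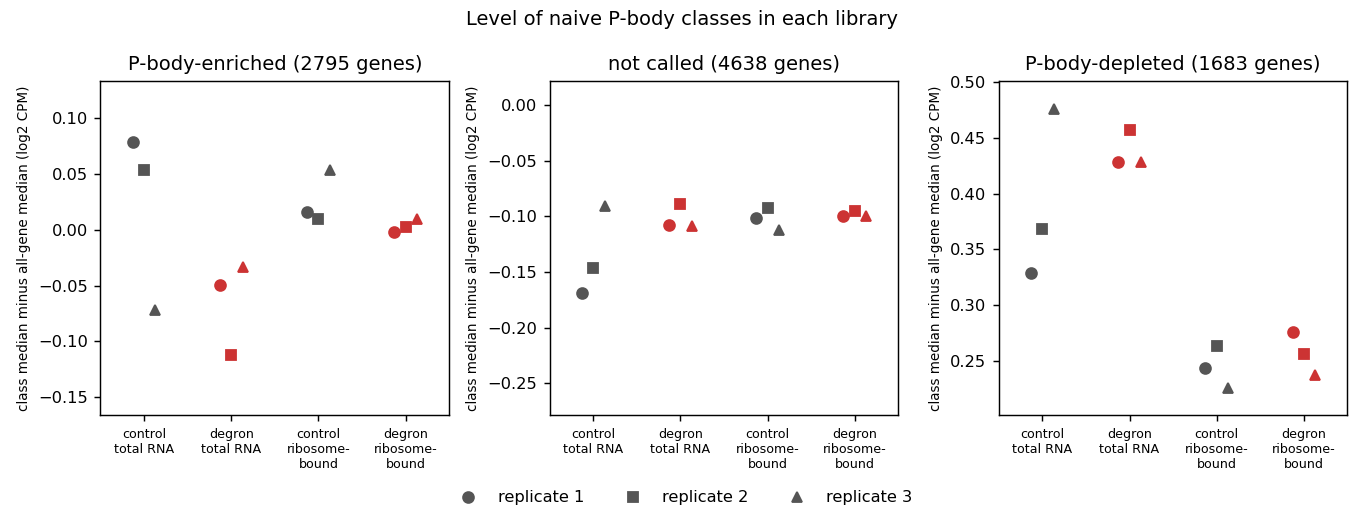
Median log2 CPM of each naive P-body class minus the median of all genes of at least 10 CPM, for each of the 12 libraries; each panel spans 0.3 log2 units. P-body-enriched genes lie higher in control total RNA replicates 1 and 2 (0.08 and 0.05) than in degron total RNA, control replicate 3 lies at −0.07, and the 6 ribosome-bound libraries lie between −0.0024 and 0.05.

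Transcript length and base composition, taken from the longest coding GENCODE transcript for 8907 of the 9116 genes, ordered the changes in the same way. From the shortest to the longest quintile of transcripts, the median occupancy change went from −0.07 to 0.07. The median change in total RNA went from 0.10 to −0.10, and that in the pool from 0.03 to −0.03. By GC content the median occupancy change went from 0.05 in the lowest quintile (median 42.0% GC) to −0.06 in the highest (58.0%), and from 0.11 to −0.12 without control total RNA replicate 3. Relative to the median of all well-expressed genes, the lowest GC quintile stood at 0.05, 0.0062 and −0.13 in control total RNA. In degron total RNA it stood at −0.08, −0.14 and −0.06. The highest GC quintile stood at −0.29, −0.27 and −0.099 in control and at −0.17, −0.11 and −0.16 in degron total RNA. In both quintiles the groups overlapped through control total RNA replicate 3. Quintiles by coding length ran from −0.05 to 0.05 and by 3′ UTR length from −0.06 to 0.05 (both from −0.09 to 0.09 without that library), while 5′ UTR length and GC content gave medians between −0.03 and 0.0047. Without control total RNA replicate 3 the quintiles by length ran from −0.11 to 0.12. P-body-enriched genes made up 74.5% of the lowest GC quintile and 2.47% of the highest. Within GC quintiles the enriched class kept a higher median than the depleted class in all 5, by values of 0.07 against −0.04 in the lowest quintile (1327 and 30 genes) and −0.04 against −0.05 in the highest (44 and 792 genes).

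**Figure D5:**
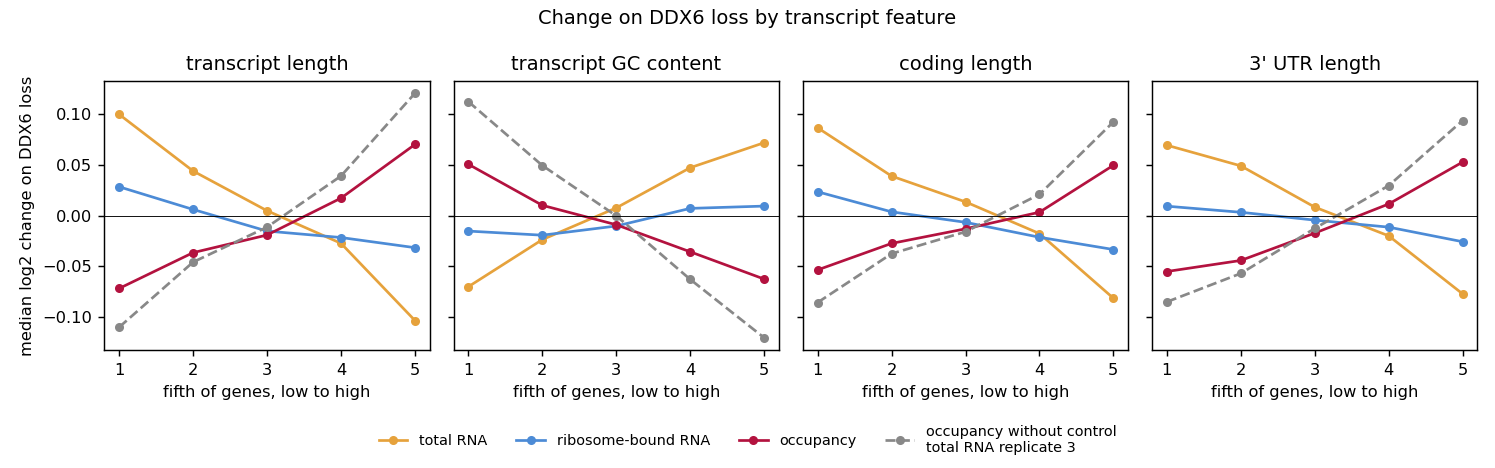
Median log2 change on DDX6 loss in quintiles of the well-expressed genes ordered by transcript length, GC content, coding length and 3′ UTR length, for total RNA, ribosome-bound RNA and occupancy, with the occupancy also given without control total RNA replicate 3 (dashed). Total RNA and occupancy slope in opposite directions, and the ribosome-bound medians lie between −0.03 and 0.03.

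Ribosome occupancy in each condition, set beside these small changes, varied widely among genes. In control cells 3350 genes had higher levels in the pool than in total RNA (20.5% of those tested) and 3910 lower (23.9%), and in degron cells 3397 (20.8%) and 3983 (24.4%). Of the genes with higher occupancy in controls 78.1% were also called higher in degron cells, which is 77.0% of the latter, and of those with lower occupancy 90.5% and 88.8%. Only 1 gene was called in opposite directions. The 2 occupancies share no library, and Pearson's r between them was 0.94 across the 9116 well-expressed genes. Lists differed in level, with median control occupancies of 0.41 for respiratory chain genes, 0.19 for cytosolic ribosomal protein genes, −0.59 for chromatin modifiers and −1.01 for aminoacyl-tRNA synthetases, and of 0.30, 0.18, −0.51 and −1.02 in degron cells. By coding length the median control occupancy went from 0.35 in the shortest quintile to −0.63 in the longest, and in degron cells from 0.29 to −0.56.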

How the data were processed

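Salmon's expected counts, as deposited by the authors, were used for the 12 libraries of ribosome-bound and total RNA. They had been computed on mm10 with refGene genes after stranded library preparation. The 20 P-body and cytoplasm libraries, of which 4 were used here, were deposited as estimated counts from HISAT2 and featureCounts. The authors' tables of their own fold changes and p-values, and the Ago2 knockout table, were not used, and 0 per-sample columns were unmapped. Counts were rounded, genes with at least 10 reads in all were kept, and all 4 groups were fitted with edgeR 4.0.16 (R 4.3.3; TMM scaling, quasi-likelihood test, two-sided, Benjamini-Hochberg adjusted p under 0.05). The occupancy change is the interaction contrast. SE values come from the test statistic and CPM use TMM-scaled library sizes. The interaction test was tested on simulated data. Alternatives were DESeq2 1.42.0, its size factors in edgeR, other filters, a replicate block, protein-coding genes alone, and omission of each library.

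Genes named were to be the largest called changes in occupancy, of which there were 0, besides Ddx6, called members of 24 hand-written lists and genes the study discusses. All others were chosen after their values were seen, as were 4 further lists. The members and lists were chosen with earlier results of these data known. The methods give each biological replicate its own culture plates, so p-values measure the spread between cultures of 1 cloned line, which were not repeated as an independent experiment. Gene coordinates are from GENCODE M21 on GRCm38 (mm10), with 97.7% of tested genes matched by symbol.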

Additional observations from a re-analysis of the deposited data

How the results depend on the processing

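The count of genes called for a change in occupancy (0) was 16 with no filter on low counts, 6 with the replicate block (Hspa8 at an edgeR adjusted p of 0.027 and 5 Gm-named genes), 4 by DESeq2, 0 with DESeq2 size factors, with filterByExpr or among protein-coding genes, and 0 to 52 with 1 library left out. The count for total RNA (1138) was 344 to 3221 with 1 library left out. The count for ribosome-bound RNA (362) was 560 with no filter, 222 with the replicate block, 688 by DESeq2 and 114 to 875 with 1 library left out. Its split of 177 higher and 185 lower was 142 and 290 with DESeq2 size factors and 202 and 486 by DESeq2. Fractions with the same number deviated together with correlations across genes of 0.029, 0.32 and 0.027 in controls and −0.11, 0.20 and 0.20 in degron cells, and in 3 of 6 cases the best match had the same number, so the numbers were not taken as pairs and the block is given here only. The median difference between P-body classes kept its sign under every alternative run (0.04 to 0.19). Occupancy changes near 0 turned sign. With no filter Dppa2 was at 0.0040 and Zfp42 at 0.0084, and with 1 library left out Dppa2 ran from −0.048 to 0.041, Zfp42 from −0.038 to 0.0345 and Zfp352 from −0.11 to 0.12. None of these was called. The list medians stayed within 1 SD of the spread between replicates in 479 cases and moved by more in 23. The 479 include medians that turned sign, such as that of cytosolic ribosomal protein genes without control ribosome-bound replicate 3. The settings share most of their libraries, so this count is no measure of error. The noncoding RNA list has no value among protein-coding genes. Depth limits the changes that could be seen below 10 CPM, and what each number marks is not stated.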
